A study of Mus musculus with 125 samples.

Results

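Single mouse embryos at the 2-cell stage differed in their relative level of 7 maternal transcripts. Here the 2PN embryos (from zygotes with 2 separate pronuclei) highest and lowest in these transcripts were set side by side. The 28 embryos came from the 43 single 2PN embryos of the cross labelled C57BL/6 x JF1/Ms, out of 125 libraries in the series. Each embryo was given an index, the mean of log2(CPM + 1) over 7 maternal transcripts (Btg4, Zbed3, Ooep, Gdf9, Bmp15, Cnot6l and H1foo), where CPM is the count of a gene per 1000000 counts of its library. The 14 embryos with the highest index and the 14 with the lowest were compared, and the 15 between them were kept as a check. The index ran from 7.38 to 8.42 (median 7.75) in the high embryos, from 6.73 to 7.29 in the middle ones and from 4.81 to 6.67 (median 6.22) in the low ones. The ordering was continuous at both edges: the last high embryo had an index of 7.38 and the first one left out 7.29, and the last low embryo had 6.67 and the first one left out 6.73. Embryo 29 was the lowest of all, at 4.81, and the next was at 5.92.

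All embryos were handled alike, per the labels: zygotes were picked 10 h after fertilization and freed of their second polar body, and each 2-cell embryo was lysed on its own at 34 h. JF1/Ms is an inbred strain derived from Japanese wild mice, C57BL/6 a common laboratory strain, and the labels do not say which strain was the mother or which embryos were littermates. The submitters' in silico call was 2PN for each of the 43. The same split was also made in 2 sets that had no part in choosing the 28 embryos. These were the 21 2PN embryos labelled JF1/MsxC57BL/6, split 7 against 7, and the 31 parthenotes of C57BL/6, which develop from an activated egg and have no paternal genome, split 10 against 10. For levels only, 11 embryos scored as 1PN (1 pronucleus) and 8 called parthenogenetic among the 1PN embryos of the first cross were used too.

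A mouse egg carries a large store of messenger RNA laid down while the oocyte grew. After fertilization this store is degraded in steps by deadenylation and decapping, and at the 2-cell stage the embryo's own genome is switched on, first with a short-lived wave of 2-cell transcripts and then with a broad rise of housekeeping genes, among them those for making ribosomes. A 2-cell embryo therefore holds a mixture of old and new RNA, and CPM values give the share of each transcript in that mixture. More of one transcript and less of all others cannot be told apart on this scale, and fewer copies per cell cannot be told apart from less RNA in the embryo as a whole.

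The 14 high and the 14 low embryos were chosen on these libraries, so the counts of genes called between them by edgeR (adjusted p under 0.05) are a description of what varied along with the index, and no p-value is attached to them. Of 12907 genes, 1376 were called higher in the high embryos (10.7%) and 784 lower (6.07%), together 16.7%. At an unadjusted p under 0.05 there were 4072 genes. In 28 genes (0.217%) every high embryo lay above every low embryo, and in 0 genes every high embryo lay below. In the other sets the embryos were also split on their own index, so a p-value there says that a gene varied with the index among those embryos and not what set it.

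No library measure passed a test between the high and the low embryos. Total counts were 3983390 ± 661377 (SD, n = 14) in the high and 3646480 ± 756020 in the low embryos, with 20225 ± 981 and 19346 ± 1870 genes detected. Total counts, genes detected and the shares of mitochondrial, top 50 and pseudogene counts had adjusted p between 0.551 and 0.620 (2-sided permutation test, 100000 resamples, 5 measures). At least 50 Y-linked counts, a mark of a male embryo, were found in 9 high and 6 low embryos (p = 0.449, 2-sided Fisher's exact test), and 3 and 5 came from the later run of accessions (p = 0.678). Few markers of other cells had a mean of at least 10 CPM. Among 26 cumulus and granulosa cell genes Fshr, Inha, Inhba, Ereg and Btc were at 0 in all 28 embryos, and only Amhr2 and Gja1 had a mean of at least 10 CPM. Of 27 sperm and testis genes 4 were at 0, among them Acr and Crisp2, and of 21 blood, stromal and epithelial genes 3 were at 0. Odf2, Ldhc and Tex101 of the former and Hba-a1, Pecam1 and Epcam of the latter reached 10 CPM. The 26 cumulus and granulosa genes summed to 27.5 to 138 CPM in the high and 65.5 to 182 CPM in the low embryos. The 27 sperm and testis genes summed to 158 to 420 and 49.3 to 426 CPM. The 21 blood, stromal and epithelial genes summed to 96.4 to 793 and 241 to 613 CPM. The level of the 3 tested cumulus and granulosa genes was below the low median in 12 of 14 high embryos, with 3 below every low one. The part of these cells in the results was not tested.

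Most other oocyte transcripts were higher where the index was high. Of 90 tested genes of an oocyte list from which the index genes had been removed, 64 were higher in the high embryos, 1 was lower and 25 were not called, against the 10.7% and 6.07% over all genes. Their median log2 fold change was 1.44, and that of all genes -0.03. The mean log2(CPM + 1) of the list ran from 6.18 to 7.48 in the high and from 4.70 to 5.80 in the low embryos, so the 14 high embryos were all above every low embryo. The 15 middle embryos lay at 5.51 to 6.27. The list was drawn up with earlier results on these libraries known, so its direction is not independent evidence.

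Tcl1, a co-activator of the kinase Akt that is abundant in eggs (chromosome 12, 105216753 to 105222737, GRCm38.p6), was the most abundant of the 4 oocyte genes named by the rule. It was at 736, 1785 and 3953 CPM (lowest, median, highest) in the high and at 132, 340 and 662 CPM in the low embryos, with a middle median of 873 CPM. The high and low embryos did not overlap, and the log2 fold change was 2.36 ± 0.25 (SE). D6Ertd527e, an oocyte transcript of unclear function, was at 112, 460 and 724 against 34.0, 87.5 and 145 CPM, a difference of 2.27 ± 0.25, and 12 of the 14 high embryos lay above every low one. Nlrp4f, an oocyte member of the NLRP family, was at 111, 266 and 393 against 29.6, 61.5 and 94.96 CPM, without overlap (1.98 ± 0.19). Obox5, an oocyte homeobox gene of a cluster of similar copies whose reads may be shared, was at 554, 762 and 1357 against 86.8, 233 and 437 CPM, again without overlap (1.82 ± 0.19).

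Further genes in which high and low embryos did not overlap were chosen for naming after their values were seen. They include Wee2, the oocyte kinase that holds meiosis by inhibiting Cdk1, at 136, 330 and 820 CPM in the high and 32.2, 88.3 and 129 CPM in the low embryos. Uchl1, a deubiquitinating enzyme abundant in eggs, was at 176, 380 and 963 against 34.8, 121 and 165 CPM. Lmo1, a LIM-domain transcription cofactor that was on none of the lists, was at 126, 254 and 1101 against 15.6, 50.4 and 120 CPM. Of the 28 genes without overlap 9 were on the oocyte list, namely the 3 above without overlap (Tcl1, Nlrp4f and Obox5), Wee2, Uchl1, Rgs2, Oas1d, Obox1 and Fbxw18. The exception on the oocyte list was Ddx4, the germ cell RNA helicase, which was lower: 16.6, 89.1 and 180 CPM in the high against 57.9, 150 and 231 CPM in the low embryos (-0.81 ± 0.23), with overlap.

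**Figure D1:**
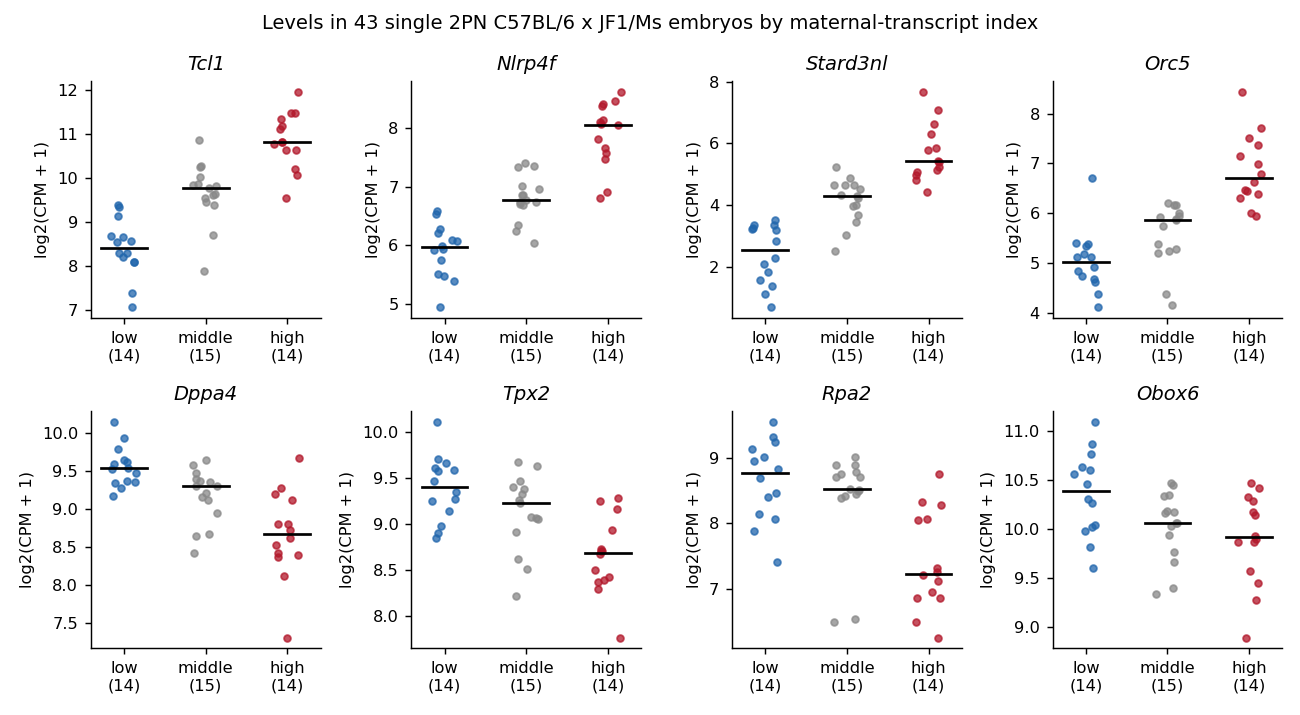
Level of 8 genes in the 43 single 2PN embryos of C57BL/6 x JF1/Ms, as log2(CPM + 1), with 1 point per embryo, grouped by index (14 low, 15 middle, 14 high) and a black line at the median. Tcl1, Nlrp4f and Stard3nl show no overlap between low and high embryos, and Dppa4, Tpx2, Rpa2 and Obox6 are lower in the high embryos with overlap.

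Beyond the lists, the genes with the largest positive differences were mostly of low level in the low embryos. Stard3nl, a protein of late endosomes that tethers them to the endoplasmic reticulum (chromosome 13, 19357676 to 19395813), was at 20.4, 41.7 and 204 CPM in the high and 0.591, 4.93 and 10.4 CPM in the low embryos, without overlap (3.51 ± 0.40). Psenen, a subunit of the gamma-secretase complex, was at 6.15, 19.2 and 94.3 against 0.110, 2.41 and 15.01 CPM (2.86 ± 0.45). Mmp2, a gelatinase, was at 0.259, 28.2 and 198 against 0, 4.81 and 11.3 CPM (3.14 ± 0.58). Cyp4a14, a fatty acid hydroxylase, had the largest fold change, 3.85 ± 0.54, but a median of only 9.33 against 0.468 CPM, and Tmem171 a median of 12.3 against 0 CPM (3.65 ± 0.73). Igsf23, Pdzph1 and Rnf5, an endoplasmic reticulum ubiquitin ligase, were among the 15 as well, at 3.02, 2.92 and 2.79.

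Pieces of the machinery that removes maternal RNA were split in direction. Of 39 tested decay genes 7 were higher and 2 lower, with a median of -0.06, against 10.7% and 6.07% over all genes. Cnot7, a deadenylase of the CCR4-NOT complex, was at 233, 396 and 953 CPM in the high and 86.7, 221 and 350 CPM in the low embryos (1.10 ± 0.23). Its close paralog Cnot8 went the other way, at 250, 335 and 557 against 326, 510 and 845 CPM (-0.63 ± 0.16). The decapping factors Edc4 (0.96 ± 0.21) and Dcp1a (0.83 ± 0.24) and the deadenylase Pan2 (0.78 ± 0.25) were higher.

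The genes lower in the high embryos included many for making and running ribosomes. Of 82 ribosomal protein genes 24 were lower and 0 higher (median -0.43, 77 of 82 below 0). Of 106 ribosome biogenesis genes 17 were lower and 0 higher (median -0.30, 95 of 106 below 0). The share over all genes was 6.07%, so both lists stood above it. Translation factors had 7 of 44 lower and 0 higher, including Eif1a, which helps scan for the start codon (-0.70 ± 0.16), and Eif4h, a helper of the eIF4A helicase (-0.92 ± 0.26). Without embryo 29, 19 ribosomal protein genes and 15 ribosome biogenesis genes were lower.

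Rps14, a protein of the small subunit, was at 206, 299 and 451 CPM in the high and 295, 443 and 654 CPM in the low embryos (-0.61 ± 0.15), and 13 of 14 high embryos lay below the low median. Rpl22 of the large subunit was at 27.9, 78.4 and 119 against 31.2, 140 and 208 CPM (-0.90 ± 0.20), with all 14 below the low median. Rpl7 and Rpl39 differed by -0.73 ± 0.18 and -1.24 ± 0.29. For Rpl39 embryo 30, a low embryo, was at 1362 CPM above a low median of 278 CPM. Embryo 30 had 14023 genes detected, the fewest of the 28 embryos, and 10.6% mitochondrial counts, the largest share. Ribosomal protein genes have many processed pseudogenes, so their reads can be shared with copies. Among the assembly factors, Nol11, which acts in transcription and early processing of ribosomal RNA, was at 174, 295 and 371 against 287, 409 and 495 CPM (-0.54 ± 0.12), and Nsa2, needed for the large subunit, at 32.6, 90.04 and 144 against 90.2, 145 and 246 CPM (-0.94 ± 0.21). For both, all 14 high embryos lay below the low median. Nhp2, a part of H/ACA particles, and Las1l, an endonuclease of ribosomal RNA processing, differed by -0.71 ± 0.16 and -1.36 ± 0.32.

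The level of the ribosomal protein list was 6.32, 7.25 and 7.74 in the high and 7.25, 7.59 and 7.86 in the low embryos, with 7 high embryos below every low one and 3 above the low median. The spread was thus wider among the high embryos (SD 0.41) than among the low ones (SD 0.16). Some high embryos reached the list levels of the low ones.

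**Figure D2:**
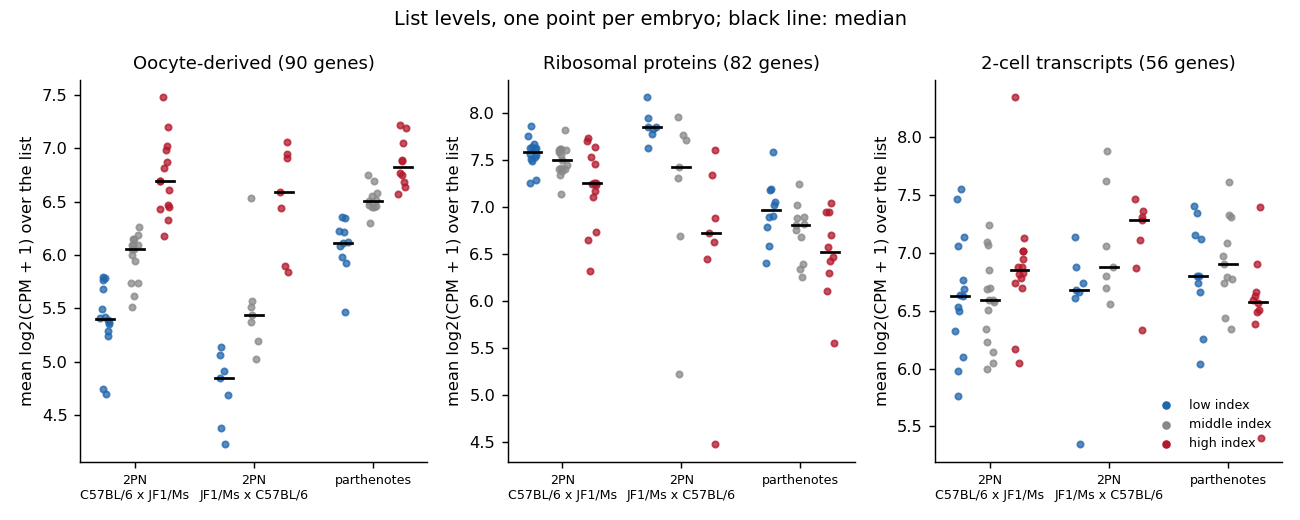
Mean log2(CPM + 1) over the tested genes of 3 lists in each embryo of 3 sets, with low, middle and high index side by side and a black line at the median. The oocyte list separates high from low embryos in each set, the ribosomal protein list has a lower median in the high embryos, with overlap in 2PN embryos of C57BL/6 x JF1/Ms and in parthenotes but not in those of JF1/Ms x C57BL/6, and the list of 2-cell transcripts overlaps in each set.

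Proteasome genes were called in the lower direction as well, with 8 of 32 lower (25%, against 6.07% over all genes) and 0 higher (median -0.33). Psmd8, Psma4 and Psmd7, of the regulatory and core particles, differed by -0.81 ± 0.19, -0.54 ± 0.15 and -0.57 ± 0.16. For Psma4 the values were 158, 365 and 546 CPM in the high and 294, 476 and 619 CPM in the low embryos, which overlap. In splicing, 5 of 58 genes were lower and 0 higher (median -0.14), a share near that of all genes. These were Hnrnpl, Prpf3, Srsf3, Nono (-0.74 ± 0.20) and Hnrnpm (-0.69 ± 0.21).

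Of 56 mitosis genes 14 were lower (25%, against 6.07% over all genes) and 5 higher (8.93%, against 10.7%), with a median of -0.26. Tpx2, which activates Aurora A on the spindle, was at 216, 412 and 621 CPM in the high and 460, 678 and 1103 CPM in the low embryos (-0.83 ± 0.15), and 10 of 14 high embryos lay below every low one. Kif11, a motor that pushes spindle poles apart, was at 62.3, 132 and 190 against 102, 207 and 354 CPM (-0.72 ± 0.16), and Cdc25a, a phosphatase that activates Cdks, at 2.32, 9.87 and 22.9 against 8.66, 24.2 and 50.5 CPM (-1.31 ± 0.30). Higher were Plk4, Ccnb2, Ncapg2, the kinetochore gene Nuf2 (68.5, 107 and 186 against 6.50, 36.03 and 91.3 CPM, 1.47 ± 0.25) and the spindle checkpoint kinase Ttk (31.1, 73.9 and 225 against 15.1, 28.7 and 74.1 CPM, 1.47 ± 0.27).

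Of 51 genes of DNA replication 7 were higher (13.7%) and 3 lower (5.88%), near the 10.7% and 6.07% over all genes (median 0.04). The level of this list was above the low median in 13 of 14 high embryos, with a difference of medians of 0.34. Only 1 high embryo lay above every low one. In the JF1/Ms x C57BL/6 cross and in parthenotes the median log2 fold change of the list was -0.35 and -0.10. Orc5, of the origin recognition complex, was at 60.2, 103 and 345 CPM in the high and 16.2, 31.5 and 104 CPM in the low embryos (1.82 ± 0.27). Of the helicase subunits Mcm4 was at 17.1, 48.1 and 162 against 1.64, 18.1 and 36.5 CPM (1.87 ± 0.37), Mcm5 differed by 1.76 ± 0.47, and Mcm2 was higher too, as were Dbf4, Rpa3 and the clamp loader subunit Rfc5 (1.12 ± 0.27). The lower ones were Cdc45, Tk1 and Rpa2, which binds single-stranded DNA. Rpa2 was at 75.7, 149 and 429 against 169, 433 and 744 CPM (-1.27 ± 0.25), and 9 of 14 high embryos lay below every low one. Nuclear transport genes had 6 of 55 higher (10.9%) and 5 lower (9.09%), also near those shares (median -0.16). The import receptors Ipo8 (1.17 ± 0.22) and Tnpo1 (0.97 ± 0.24) and the pore protein Nup62 (1.05 ± 0.21) were higher.

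**Figure D3:**
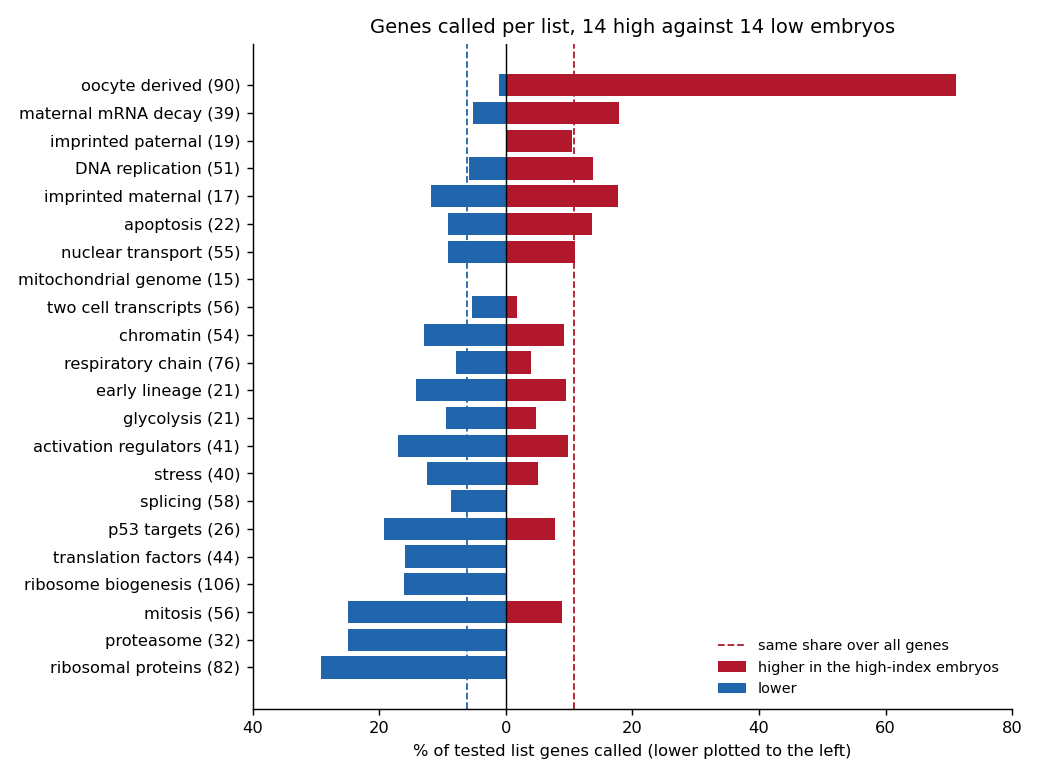
Share of the tested genes of each list called higher (red, to the right) or lower (blue, to the left) in the 14 high against the 14 low embryos, with the number of tested genes in brackets. Dashed lines mark the shares over all 12907 genes, 10.7% and 6.07%, and the oocyte list stands far to the right of its line with 71.1%.

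Few transcripts of the 2-cell wave were called. Of 56 tested, 1 was higher and 3 lower, against 10.7% and 6.07% over all genes, with a median of 0.17. This median changed sign with 10 against 10 embryos (-0.42). The level of the list was 6.05, 6.85 and 8.34 in the high and 5.76, 6.63 and 7.56 in the low embryos. Pramef20, of a family with near-identical copies, was higher (median 20.1 against 3.31 CPM, 2.29 ± 0.56). Obox6, a homeobox gene of the same cluster as Obox5, was lower, at 474, 966 and 1414 against 778, 1337 and 2177 CPM (-0.56 ± 0.18), and so were Mt1, a metallothionein (-0.91 ± 0.32), and Trim43a (-0.59 ± 0.20). Without embryo 29 Trim43a was not called, and without embryo 30, which had the lowest total count of the low embryos, Mt1 was not called. Zscan4d, the 2-cell zinc finger gene named here after its values were seen, was at 48.5, 101 and 1291 against 39.6, 112 and 540 CPM and was not called (0.34 ± 0.45).

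Among 41 regulators of genome activation 4 were higher (9.76%) and 7 lower (17.1%), with a median of -0.24. The shares over all genes were 10.7% and 6.07%. Without embryo 29, only 3 of these regulators were lower. Dppa4, which with Dppa2 turns on the regulator Dux (chromosome 16, 48283735 to 48294292), was at 157, 406 and 813 CPM in the high and 578, 741 and 1134 CPM in the low embryos (-0.92 ± 0.18). Of the 14 high embryos 11 lay below every low one and 13 below the low median. Its partner Dppa2 was at 77.9, 285 and 557 against 189, 440 and 738 CPM (-0.68 ± 0.21), with 2 below every low embryo. Supt5, Ccnt1, Smarca5, Ep300 and Tead4 were lower too, the last, a transcription factor of the trophectoderm, at -1.05 ± 0.35. Higher were Obox5, Yap1, Hsf1, the heat shock factor stored in oocytes (0.61 ± 0.19), and Pou5f1, which encodes Oct4 (median 11.9 against 3.55 CPM, 1.31 ± 0.42). Without embryo 29 Tead4 was not called.

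Genes of energy metabolism were set beside shares of 10.7% higher and 6.07% lower over all genes. Respiratory chain genes had 3 of 76 higher (3.95%) and 6 lower (7.89%) with a median of -0.10, and 0 of 15 genes of the mitochondrial genome were called by edgeR. Cox8a (453, 610 and 1363 against 315, 440 and 554 CPM, 0.58 ± 0.15), Ndufab1 (0.82 ± 0.20) and Sdha (1.30 ± 0.36) were the higher ones, and Uqcrb, of complex III, was the most negative (median 8.65 against 36.9 CPM, -1.70 ± 0.42). Of 21 glycolysis genes 1 was higher (4.76%) and 2 lower (9.52%). Ldhb, a lactate dehydrogenase abundant in eggs, was higher (304, 545 and 800 against 133, 283 and 405 CPM, 1.01 ± 0.18), and Pdhb and Slc16a1 were lower.

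Of 54 chromatin genes 5 were higher (9.26%) and 7 lower (12.96%), against 10.7% and 6.07% over all genes, with a median of -0.06. Tet3, the oocyte-supplied enzyme that oxidises methylcytosine in the zygote, was at 38.8, 51.7 and 109 CPM in the high and 17.1, 27.96 and 43.96 CPM in the low embryos (0.99 ± 0.19). Zfp57, which protects imprinted methylation, was at 94.4, 150 and 243 against 24.8, 63.9 and 176 CPM (0.98 ± 0.22). Bmi1, a Polycomb protein, was at 375, 620 and 1056 against 202, 410 and 478 CPM (0.66 ± 0.16). The other higher ones were Kmt2b and Kdm1b.

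Imprinted genes were set beside the shares of 10.7% higher and 6.07% lower over all genes. Of 17 tested maternally expressed genes 3 were higher (17.6%) and 2 lower (11.8%). Of 19 paternally expressed ones 2 were higher (10.5%) and 0 lower. Gnas (median 18.8 against 5.15 CPM, 1.71 ± 0.32), Th (51.6 against 10.1 CPM, 1.67 ± 0.41), Copg2, Mcts2 and Mest (22.6 against 9.67 CPM, 1.13 ± 0.32) were higher. Igf2r, the receptor that clears Igf2, was at 12.3, 35.7 and 124 against 41.1, 89.0 and 129 CPM (-1.01 ± 0.25), with 9 high embryos below every low one. Cdkn1c, a Cdk inhibitor, had a median of 3.96 against 20.8 CPM (-2.0 ± 0.65). The alleles were not separated in these counts.

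Of the p53 and stress genes more were lower than higher. Of 26 p53 targets 2 were higher (7.69%) and 5 lower (19.2%), of 40 stress genes 2 higher and 5 lower (12.5%), and of 22 apoptosis genes 3 higher (13.6%) and 2 lower (9.09%), against 10.7% and 6.07% over all genes. Mdm4, an inhibitor of p53, was among the most abundant, at 3029, 3782 and 6489 CPM in the high and 1020, 2451 and 3242 CPM in the low embryos (0.63 ± 0.13), and Apaf1 was lower (-0.85 ± 0.20). Hspb1, a small heat shock protein, had a median of 51.0 against 207 CPM (-1.99 ± 0.61) and Hspa5, the chaperone of the endoplasmic reticulum, of 433 against 623 CPM (-0.64 ± 0.17). Birc3 (1.06 ± 0.22), Bik (1.78 ± 0.58) and Cflar were higher, and Xiap was lower. Without embryo 29 Bik was not called. Of 21 lineage genes Pou5f1 and Tcl1 were higher, and Tead4, Klf2 (-1.38 ± 0.46) and Fgf4 (-0.74 ± 0.24) lower, the last not called without embryo 29. Of the marker lists of other cells, Odf2 was higher (median 79.7 against 25.9 CPM, 1.72 ± 0.27), Amhr2 (38.5 against 56.2 CPM, -0.71 ± 0.23) and Tekt1 were lower, and 0 of 7 blood, stromal and epithelial genes were called by edgeR. Of 6 tested Y-linked genes 0 were called, with differences above 0 in each of the 6, beside the 9 and 6 embryos with Y-linked counts.

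The genes with the most negative differences were mostly at low levels. Hook3, a cargo adaptor of dynein, had the most negative value, -6.25 ± 1.16, which rested on embryo 30 at 3085 CPM. The low median was 8.08 CPM and the high median 4.01 CPM, and without that embryo the difference was -2.25. Nectin2, an adhesion protein, was at 0, 1.74 and 5.47 CPM in the high and 1.97, 8.59 and 31.9 CPM in the low embryos (-2.72 ± 0.51), with 10 high embryos below every low one. Fance, of the Fanconi anaemia complex, had a median of 6.28 against 18.1 CPM (-2.05 ± 0.50), Ddx39b, an RNA export helicase, of 7.28 against 26.9 CPM (-1.95 ± 0.42), and Chic1 of 6.68 against 29.6 CPM (-1.91 ± 0.40). All 14 high embryos lay below the low median in these 4 genes. Tekt2, a tektin of cilia and flagella, and Slc2a8, a glucose transporter, differed by -2.10 ± 0.39 and -1.90 ± 0.54.

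The 15 middle embryos, which took no part in the calls, lay between for most called genes. Their mean CPM was between the mean CPM of the high and of the low embryos for 98.0% of the 1376 higher genes. The same held for 84.8% of the 784 lower genes, against 53.7% of all genes tested. Their index also lay between by construction, so this is not a separate test. It did not hold for the level of each list. The ribosome biogenesis list had a median of 7.08 in the high, 7.35 in the middle and 7.34 in the low embryos. For the ribosomal protein list the medians were 7.25, 7.50 and 7.59.

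In the 2PN embryos of JF1/Ms x C57BL/6 the index of the 7 high embryos was 6.88 to 8.40 and of the 7 low ones 4.73 to 6.18, a wider gap than in the first cross. Of 10674 genes, 1282 were higher (12%) and 828 lower (7.76%) by edgeR, together 19.8%. Embryo 8, a high embryo, stood apart with a ribosomal protein level of 4.47 where the next was 6.44, and without it 864 were higher and 606 lower. Of the oocyte list 60 of 87 were higher and 0 lower (median 1.88), and 57 without embryo 8. Tcl1 differed by 3.35 ± 0.50 (edgeR adjusted p = 0.000556), Nlrp4f by 3.34 ± 0.62 (0.00207), D6Ertd527e by 2.99 ± 0.60 (0.00344) and Obox5 by 2.08 ± 0.54 (0.0134), each higher in 7 of 7 high embryos than the low median. Wee2 and Uchl1 differed by 4.44 ± 0.63 (0.000402) and 2.50 ± 0.60 (0.00963), and Lmo1 by 2.93 ± 0.57 (0.00284). Ddx4 was not called there (1.23 ± 0.98, edgeR adjusted p = 0.372). Of the genes on no list, Stard3nl (3.30 ± 0.65, 0.00302), Psenen (3.99 ± 0.70, 0.00157) and Mmp2 (4.30 ± 0.79, 0.00203) were higher.

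Of the decay genes in this cross 4 of 38 were higher (10.5%) and 2 lower (5.26%). Both shares were below the 12% and 7.76% over all genes of this cross. Cnot7 (1.51 ± 0.36, edgeR adjusted p = 0.00907), Dcp1a (1.57 ± 0.49, 0.0321) and Pan2 (2.07 ± 0.59, 0.0214) were among the higher ones. Without embryo 8 only 1 decay gene was higher and 1 lower, and Dcp1a and Pan2 had an edgeR adjusted p of 0.117 and 0.0610. Orc5 (2.21 ± 0.52, 0.00871), Mcm4 (1.71 ± 0.43, 0.0123), Rfc5 (1.57 ± 0.46, 0.0234), Nuf2 (1.30 ± 0.38, 0.0224), Ldhb (1.48 ± 0.32, 0.00471), Gnas (3.0 ± 0.63, 0.00471), Mest (2.81 ± 0.59, 0.00454), Th (2.92 ± 0.54, 0.00215) and Odf2 (2.86 ± 0.46, 0.00100) were higher. Tet3 (1.00 ± 0.48, 0.135) and Zfp57 (1.35 ± 0.48, 0.0528) were not called.

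Genes of the ribosome were lower in this cross too. Of 106 ribosome biogenesis genes 41 were lower and 0 higher (median -1.35), and of 82 ribosomal protein genes 26 were lower (median -0.95). Over all genes of this cross 7.76% were lower. The biogenesis list had a level of 4.66, 5.51 and 6.79 in the high and 7.03, 7.25 and 7.59 in the low embryos, which did not overlap. Without embryo 8 there were 33 and 19 lower. Nsa2 (-2.23 ± 0.65, edgeR adjusted p = 0.0235), Rpl22 (-2.36 ± 0.43, 0.00203), Rps14 (-1.23 ± 0.35, 0.0219) and Rpl39 (-1.37 ± 0.44, 0.0346) were lower, and Nol11 (-1.0 ± 0.39, 0.0700) and Nhp2 (-1.40 ± 0.50, 0.0522) missed the threshold. Proteasome genes had 14 of 32 lower (median -1.39), among them Psma4 (-1.43 ± 0.44, 0.0294) and Psmd7 (-1.65 ± 0.56, 0.0456), and translation factors 11 of 44, of which 6 without embryo 8. Dppa4 was lower (-1.38 ± 0.48, 0.0470), with 7 of 7 high embryos below the low median, and at 0.0772 without embryo 8. Rpa2 (-2.09 ± 0.60, 0.0219), Igf2r (-2.66 ± 0.51, 0.00257), Kif11 (-1.21 ± 0.42, 0.0454) and Uqcrb (-1.58 ± 0.54, 0.0431) were lower, the last 2 at 0.0640 and 0.0699 without embryo 8. Tpx2 was not called (-0.55 ± 0.39, 0.318).

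Of 55 transcripts of the 2-cell wave 9 were higher (16.4%) and 2 lower (3.64%) in this cross (median 0.74). The shares over all genes of this cross were 12% and 7.76%. The higher ones were Hspa8, Zfp54, Usp17la, Gm4340, AF067061, Tcstv1, Zscan4a, Zscan4b and Zscan4d (2.30 ± 0.66, edgeR adjusted p = 0.0215), many of them in families of similar copies. Mt1 and Pdxk were lower. The difference of Zscan4d from its value in the first cross missed the threshold (-1.93, adjusted p = 0.109).

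In parthenotes oocyte genes were higher in the high embryos as well. Their index was 7.65 to 9.15 in the 10 high and 6.50 to 7.35 in the 10 low embryos. Of 13424 genes 328 were higher (2.44%) and 103 lower (0.767%), together 3.21%, and 187 and 69 without embryo 11, a high embryo with the lowest total count. Total counts were lower in the high parthenotes (median 2990870) than in the low ones (median 3385360), and with the total count as a term 45 genes were higher and 11 lower. Of the 90 oocyte genes 34 were higher and 0 lower (median 0.81). Tcl1 (1.10 ± 0.21, edgeR adjusted p = 0.00844), D6Ertd527e (1.32 ± 0.26, 0.0109), Nlrp4f (1.26 ± 0.30, 0.0229), Stard3nl (1.83 ± 0.28, 0.00315), Psenen (1.77 ± 0.37, 0.0149), Orc5 (1.01 ± 0.23, 0.0190), Nuf2 (1.19 ± 0.28, 0.0222), Ldhb (0.58 ± 0.15, 0.0374) and Mdm4 (0.44 ± 0.12, 0.0432) were higher, with 9 or 10 of 10 high embryos above the low median. Obox5 (0.74 ± 0.20, 0.0425), Cnot7 (0.94 ± 0.23, 0.0295), Gnas (1.63 ± 0.41, 0.0313) and Tet3 (1.28 ± 0.33, 0.0335) were called too, but not without embryo 11 (0.0718, 0.0539, 0.0521 and 0.0671).

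Of the lower groups, 5 of 105 ribosome biogenesis genes and 6 of 82 ribosomal protein genes were lower in parthenotes, with medians of -0.51 and -0.49 and 102 and 77 below 0. Over all genes tested in parthenotes 0.767% were lower. Without embryo 11, 3 genes of each of these lists were lower. Nol11 (-0.83 ± 0.21, edgeR adjusted p = 0.0282), Hnrnpm (-1.40 ± 0.27, 0.00907) and Kif11 (-1.33 ± 0.30, 0.0181) were lower. Dppa4 (-0.54 ± 0.27, 0.245), Dppa2 (0.03 ± 0.33, 0.967), Rpa2 (-1.33 ± 0.40, 0.0627) and Tpx2 (-0.56 ± 0.28, 0.255) were not called. Of 57 2-cell transcripts 0 were higher and 2 lower, Usp17lb and Trim43c (median -0.40).

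**Figure D4:**
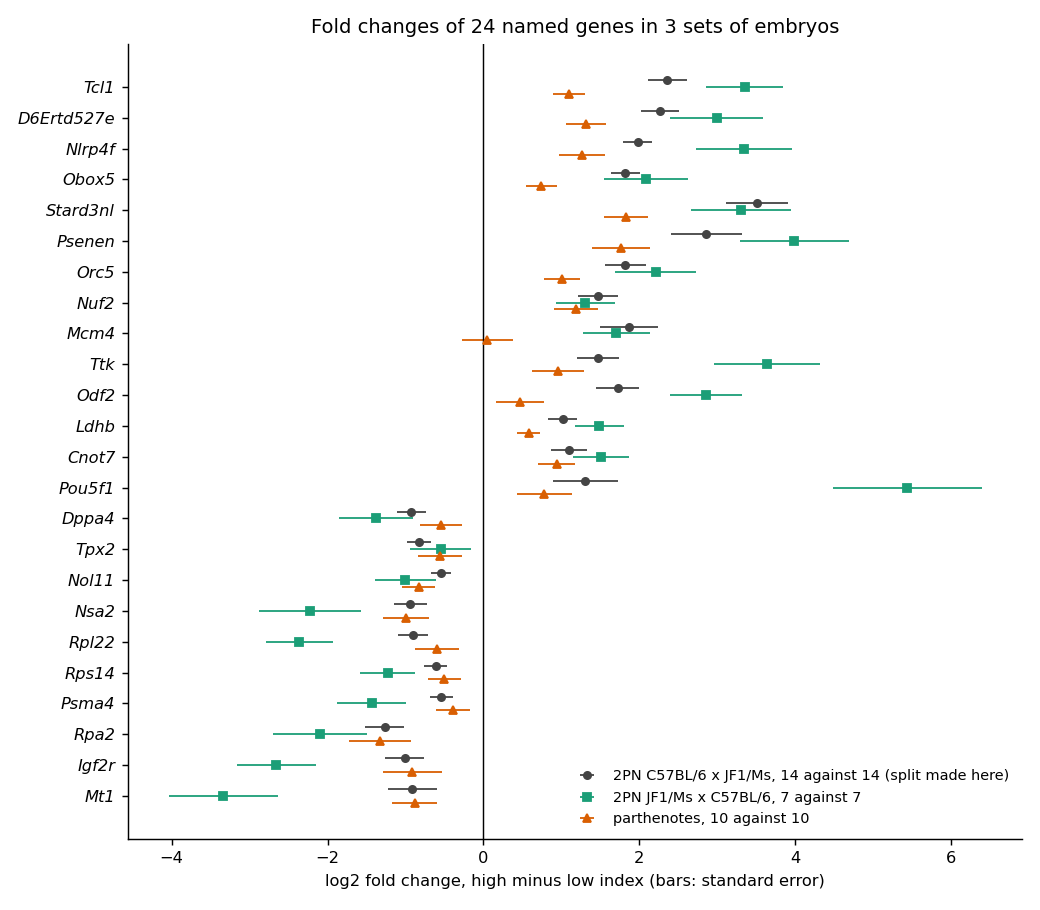
Log2 fold change, high minus low index, of 24 named genes with its standard error in 2PN embryos of C57BL/6 x JF1/Ms (circles, 14 against 14), 2PN embryos of JF1/Ms x C57BL/6 (squares, 7 against 7) and parthenotes (triangles, 10 against 10). The first 14 genes lie above 0 in each set and the last 10 below 0 in each set, with Mcm4 near 0 in parthenotes (0.05).

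The calls were then compared between the sets. Of the 1103 genes called higher in the first cross and tested in the other, 655 were called higher there (59.4%, against 11.9% of all genes tested in both), which is 54.2% of the calls of that cross. By edgeR 0 were called lower, and 95.2% had the same sign against 48.3% of all genes. Of 737 lower ones 199 were called lower (27%, against 8.10% of all genes, and 24.1% of the calls of that cross) and 6 higher, and 87.8% had the same sign against 51.7%. In parthenotes 238 of 1341 higher genes were called higher (17.7%, against 2.66% of all genes), which is 75.6% of the parthenote calls. Of 762 lower genes 42 were lower there (5.51%, against 0.869%), which is 40.8% of the calls. The same sign was found for 95.2% of the higher genes, against 47.9% of all genes, and for 94.2% of the lower ones, against 52.1%. Of the 15 largest differences 4 were tested in the other cross, all 4 in the same direction and 3 called, and of the 15 most negative ones 10 were tested, 7 in the same direction and 1, Ddx39b, called (-3.07 ± 0.89, edgeR adjusted p = 0.0220). In parthenotes 14 and 14 were tested, 14 and 12 had the same direction, and 2 and 0 were called.

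The difference between the sets was tested directly as an interaction. Of 18522 genes 1064 differed between the crosses (5.74%), and 2 differed between the first cross and the parthenotes (0.0108%), with 4180 and 1249 at an unadjusted p under 0.05. The gaps in the index were not equal, at 1.66 (7.84 ± 0.37 against 6.18 ± 0.48), 1.94 (7.62 ± 0.58 against 5.67 ± 0.48) and 1.13 (8.15 ± 0.47 against 7.03 ± 0.25), and the part of this gap in the differences was not tested.

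Embryos scored as 1PN in the first cross had an index of 6.29 to 7.87 (n = 11), inside the range of the 43 2PN embryos. The 8 called parthenogenetic were at 7.58 to 9.95. Their level of the oocyte list was 6.45, 6.84 and 7.86, that of the high 2PN embryos 6.18, 6.70 and 7.48, and that of the 31 parthenotes 5.47 to 7.22. Their level of the ribosomal protein list was 5.04, 6.56 and 7.51. No test was made between these groups and the 28 embryos, which were chosen on their index.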

How the data were processed

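RNA was measured in single 2-cell mouse embryos, with libraries from a SMART-Seq v4 low-input kit and a Nextera XT kit, per the labels. The authors deposited 1 table of estimated counts per gene, with no scaling, of which 12.6% were not whole. Per the submitters' processing notes, the tools were HISAT2 2.0.5 and featureCounts 2.0.0 and the build GRCm38. Not given in the sources used here: annotation release, strandedness, treatment of multi-mapping reads. There were 43421 genes, 743 of them without a count in any library used. Symbols were found for 43266 IDs, and coordinates and gene types for 31812, from RefSeq annotation of GRCm38.p6. Depth ranged from 1691420 to 4887270 counts in the 28 embryos, and since the labels name no molecular identifiers, reads are not independent molecules. The 4 libraries that the labels call dead or of low quality were left out of all comparisons. No pair of the 28 looked like 1 library deposited under 2 names (378 pairs, lowest chi-square per gene 17.3).

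CPM was taken over the column total. Counts were rounded to whole numbers and tested by the quasi-likelihood method of edgeR 4.0.16 under R 4.3.3, after TMM scaling, with filterByExpr on the groups and a threshold of 0.05 on p-values adjusted by Benjamini and Hochberg over every gene tested. The alternatives used DESeq2 1.42.0 and limma 3.58.1. Library measures were compared by their means in 2-sided permutation tests. Other steps used scipy 1.17.1, pandas 2.3.3, matplotlib 3.10.9 and numpy 2.4.6 under Python 3.11.15. Labels do not say whether embryos share parents, so p-values measure the spread between embryos only. On simulated counts for the 14 against 14 design (12914 genes, 200 changed), 115 genes were called, of which 6 were unchanged. Of genes changed 4-fold 81% were recovered, and of genes changed 2-fold 28%. The changed genes went up and down in equal numbers, and the groups were not chosen on the simulated levels. In the embryos 16.7% of genes were called, so recovery there can differ from these shares.

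Members and lists were chosen with earlier results of these data known. The 26 lists cover oocyte transcripts, maternal RNA decay, 2-cell transcripts, activation regulators, ribosome biogenesis, ribosomal proteins, translation factors, splicing, proteasome, nuclear transport, DNA replication, mitosis, respiratory chain, mitochondrial genome, glycolysis, chromatin, p53 targets, stress, apoptosis, early lineages, imprinted genes of either parent, Y-linked genes, and markers of cumulus and granulosa cells, sperm and testis, and blood and other cells. Named genes are from the 15 largest and 15 most negative fold changes among the called protein-coding genes whose mean CPM reached 10 in the higher group and which had a count in at least 0.5 of its embryos, and from the 4 genes of smallest p in each list. Ddx4, Pan2, Tead4, Mcm5, Sdha, Kif11, Wee2, Uchl1, Lmo1, Zscan4d and genes named without a value were chosen after their values were seen.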

Additional observations from a re-analysis of the deposited data

Results flagged for a closer look

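A lone value was looked for in 30 groups of values, each of 1 measure in 1 group of embryos. Chance alone flags about 1 in 20 of them, and 5 values stood apart from their group. Some of the 30 shared the same embryos, so they were not independent. In the JF1/Ms x C57BL/6 cross, a high 2PN embryo had a ribosomal protein level (mean log2(CPM + 1)) of 4.47 with the next at 6.44, and a low one had a 2-cell transcript level of 5.35 with the next at 6.61. Among the high parthenotes 1 had a total count of 1846360 with the next at 2621140, and 1 had a 2-cell transcript level of 5.404 with the next at 6.39. Among the low parthenotes 1 had an oocyte transcript level of 5.47 with the next at 5.93.

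For some of the named genes the effect (log2 high minus low) in the C57BL/6 x JF1/Ms cross differed from that in the JF1/Ms x C57BL/6 cross by an edgeR interaction test. The difference was -7.11 for Hook3, which rests on 1 embryo, -3.34 for Cdkn1c, -2.17 for Ttk, -2.20 for Cdc25a, -2.32 for Wee2, -1.54 for Bmi1, -0.82 for Mdm4 and -1.05 for Hspa5. It was -4.14 for Pou5f1, which differed by 5.44 ± 0.95 in the JF1/Ms x C57BL/6 cross. It was 2.43 for Mt1, 1.46 for Rpl22, 1.59 for Hnrnpm and 1.66 for Igf2r, which were lower in the high embryos of both crosses and further below in the JF1/Ms x C57BL/6 cross.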

How the results depend on the processing

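No paired analysis was possible because the high and the low embryos belong to 1 labelled group and share no replicate numbers. In the C57BL/6 x JF1/Ms cross 2851 genes were higher and 1744 lower without a filter on low counts, and 1591 lower as a slope on the index over all embryos. The same slope gave 2114 and 1817 in the JF1/Ms x C57BL/6 cross and 1467 and 1453 in parthenotes. DESeq2 gave 2522 higher and 1415 lower in the JF1/Ms x C57BL/6 cross, and 896 and 345 in parthenotes. With limma voom 1604 and 214 were lower in these sets. Parthenotes had 126 and 29 without the filter, 45 and 11 with the total count as a term, and 187 higher without the embryo of the lowest total count. The median of the 2-cell transcripts changed sign with 10 against 10 embryos (-0.42), DESeq2 (-0.027), the index without Gdf9 (-0.19) and the slope (-0.19), and Zscan4d under these (-0.74, -0.50, -0.57 and -0.0091) and limma voom (-0.012). The median of the decay genes changed sign with the index without H1foo (0.00052), and in the JF1/Ms x C57BL/6 cross with limma voom (-0.10), no filter (-0.021) and embryo 8 left out (-0.14). In parthenotes uncalled genes changed sign: with limma voom Nectin2 (0.10), Dppa2 (-0.24), Mcm4 (-0.014) and Mcm5 (0.015), with the slope Nectin2 (0.00175), Dppa2 (-0.57), Mcm4 (-0.071) and Mcm5 (0.091), with no filter Mcm4 (-0.0050), and with the total count as a term Ddx4 (0.026). The difference in the share of the 50 most counted genes was -0.871 percentage points between means and 0.030 between medians. The causes were not tested. Of 1779 values of 89 named genes in the C57BL/6 x JF1/Ms cross 1702 kept direction and call, and 72 lost the call, with Hook3 and Pramef20 among those lost under limma voom. The fits used 14 against 14, 7 against 7 and 10 against 10 embryos, and how their number and depth limit the calls was not tested.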
